A study of Mus musculus with 6 samples.

Results

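Notch1, Notch2, Dll1, Dll4, Jag1, Hes1, Hes6 and Atoh1 are 8 of the 55335 genes counted in cells of mouse intestinal organoids. They were taken by symbol, and each symbol occurs once in every library. Organoids are cultures of gut epithelium. All organoids came from wild-type C57BL/6 mice aged 8 weeks, and the design text names 2 mice in duplicate without tying a library to a mouse. The 6 libraries form 5 groups. At day 4 (96 hours) there was 1 library each of organoids given an RXR antagonist (RXRi, 5 µM), organoids given all-trans retinoic acid (atRA, 10 µM), organoids in vitamin A-free medium and organoids given DMSO as vehicle. At day 1 (24 hours) there were 2 vehicle libraries. Treatment was given at day 0 and again at day 3, when all organoids were moved to ENR medium. Until then the medium also held Wnt3a-conditioned medium, the ROCK inhibitor Y-27632 and the GSK3B inhibitor CHIR99021, so day 4 and day 1 differ in medium as well as in time. Both doses carry the unit "μm" in the labels, read here as micromolar, and it is not stated whether the vitamin A-free organoids received DMSO. Retinoid X receptors (RXR) are nuclear receptors that pair with others, among them the retinoic acid receptors.

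Notch signalling passes between touching cells. A ligand of the Delta-like (Dll) or Jagged (Jag) family on one cell binds a Notch receptor on its neighbour, the receptor is cut, and its inner part enters the nucleus and acts with the DNA-binding protein RBPJ. In the gut crypt, Notch1 and Notch2 are the receptors of the stem and progenitor cells, and Dll1 and Dll4 are the main ligands. Hes1, a transcriptional repressor, is the best known target there and represses Atoh1. Atoh1 is a basic helix-loop-helix factor that is needed for goblet, Paneth and enteroendocrine cells, and cells that make it carry Delta-like ligands. Hes6 is a related factor that can oppose Hes1.

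On GRCm38 (GENCODE M21) the genes lie at chr2:26457903-26516663 (Notch1, minus strand), chr3:98013527-98150361 (Notch2, plus), chr17:15367354-15376872 (Dll1, minus) and chr2:119325784-119335962 (Dll4, plus). The other 4 lie at chr2:137081456-137116644 (Jag1, minus), chr16:30064384-30067796 (Hes1, plus), chr1:91411483-91414038 (Hes6, minus) and chr6:64729125-64731245 (Atoh1, plus). Notch1, Notch2, Dll1 and Dll4 overlap other annotated genes. Gm42819 and Gm42820, with 285 and 131 UMIs over the libraries, lie on the same strand as Notch2, so strand cannot separate their reads from those of Notch2. The partner of Dll4 on the opposite strand is Gm14207, and reads of the pair can be told apart only if the counting used strand, which is not given in the sources used here.

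RefSeq promoters (GRCm38.p6, 250 bases before to 50 after a start site) were found for 7 of the 8 genes. None was found for Hes1, so its promoter was not searched for the motifs below. The following 3 are shown because they hold CAGCTG, an E-box of the kind that basic helix-loop-helix factors bind, in capitals. They are those of Dll1 (chr17:15376883-15377182, minus), Hes6 (chr1:91413989-91414288, minus) and Jag1 (chr2:137116471-137116770, minus), each written 5′ to 3′ on the strand of the gene.
Dll1: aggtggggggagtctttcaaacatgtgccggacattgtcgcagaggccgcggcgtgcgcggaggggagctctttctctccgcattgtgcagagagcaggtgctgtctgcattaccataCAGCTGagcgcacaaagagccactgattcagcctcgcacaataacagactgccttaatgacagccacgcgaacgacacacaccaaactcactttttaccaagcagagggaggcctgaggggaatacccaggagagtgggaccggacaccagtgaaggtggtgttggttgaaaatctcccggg
Hes6: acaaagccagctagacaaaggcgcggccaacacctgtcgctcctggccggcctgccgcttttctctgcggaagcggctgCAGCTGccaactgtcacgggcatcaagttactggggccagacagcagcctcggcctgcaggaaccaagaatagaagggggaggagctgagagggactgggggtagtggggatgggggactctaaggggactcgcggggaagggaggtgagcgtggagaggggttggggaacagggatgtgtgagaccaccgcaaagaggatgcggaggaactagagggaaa
Jag1: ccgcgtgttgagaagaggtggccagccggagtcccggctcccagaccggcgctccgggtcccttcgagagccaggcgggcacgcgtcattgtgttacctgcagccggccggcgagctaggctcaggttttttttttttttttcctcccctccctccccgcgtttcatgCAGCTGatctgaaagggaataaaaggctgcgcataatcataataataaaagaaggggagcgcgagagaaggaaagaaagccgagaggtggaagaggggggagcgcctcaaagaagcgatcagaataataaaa
The motif starts at base -132 in Dll1, at -171 in Hes6 and at -82 in Jag1, counted from the start site. A further Hes6 start site also has it, at -150, and a further Dll1 start site does not. CAGCTG, which reads the same on both strands, is in 16.3% of 32851 promoters. Neither the E-box CAGATG nor TGGGAA, the core that RBPJ binds, is in these windows of the 7 genes on either strand, and they are in 17.2% and 25.6% of all promoters. A match is a description of the letters only.

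Between 3468 and 5327 cells were kept per library, with 47258161 to 62567817 unique molecular identifiers (UMIs, counts of captured RNA molecules). Levels are in CPM, in which the UMIs of a gene are scaled to a library total that is the same for all, with 95% intervals from the exact Poisson method, which cover the error of counting alone. Each day-4 group has 1 library, so its differences have no replicate check and no test. In summed libraries, fewer cells of a type and less RNA per cell cannot be told apart. The epithelial adhesion gene Epcam was at 1874 to 3213 CPM, and Cdh1 and Vil1 were detected in every library. The summed level of 11 fibroblast markers was 0.0846 to 0.573 CPM and that of 10 endothelial markers 2.41 to 4.85 CPM. The 12 immune markers summed to 12.3 CPM with RXRi, of which 11.4 CPM was Cd68, and to 1.81 to 4.92 CPM elsewhere. Ptprc, the defining immune marker, had at most 0.0212 CPM. The median mitochondrial share was 1.85% with RXRi, 4.40% with atRA, 3.69% in vitamin A-free medium and 3.58% in the day-4 vehicle. What part these differences have in the results was not tested. Pairs of libraries shared 1 to 16 cell barcodes.

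Both receptors differed between treatments, in different ways. Notch1 was at 4.15 CPM with RXRi, 4.24 CPM with atRA, 17.9 CPM in vitamin A-free medium and 12.5 CPM in the day-4 vehicle, and at 15.2 and 9.12 CPM in the day-1 libraries. The RXRi and atRA libraries were the lowest of the 6, and the day-4 vehicle lay between the day-1 libraries. Against the day-4 vehicle, Notch1 was 3.02-fold lower with RXRi (2.57 to 3.56) and 2.95-fold lower with atRA (2.55 to 3.42). Notch2 was at 7.45 CPM with RXRi, 1.85 CPM with atRA, 4.27 CPM in vitamin A-free medium and 2.72 CPM in the day-4 vehicle, and at 9.41 and 7.86 CPM at day 1. Notch2 with RXRi was thus close to the day-1 libraries and above the other day-4 libraries. Its ratio to the vehicle was 2.74 with RXRi (2.24 to 3.37), 0.680 with atRA (0.525 to 0.880) and 1.57 in vitamin A-free medium (1.26 to 1.96).

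Of the ligands, Dll1 and Dll4 were lowest with RXRi. Dll1 was at 1.74 CPM with RXRi, 8.14 CPM with atRA, 17.3 CPM in vitamin A-free medium and 16.8 CPM in the day-4 vehicle, and at 10.7 and 10.4 CPM at day 1. It was 9.70-fold lower with RXRi (7.72 to 12.3) and 2.07-fold lower with atRA (1.85 to 2.31) than in the vehicle, while the vitamin A-free ratio was 1.03 (0.932 to 1.13). Dll4, the sparsest of the 8 genes with 24 to 175 UMIs per library, was at 0.508 CPM with RXRi, 0.875 CPM with atRA, 3.55 CPM in vitamin A-free medium and 2.76 CPM in the day-4 vehicle, and at 0.991 and 1.99 CPM at day 1. That is 5.43-fold lower with RXRi (3.50 to 8.76) and 3.15-fold lower with atRA (2.28 to 4.41) than in the vehicle. Jag1 went the other way with RXRi. It was at 11.5 CPM with RXRi, 5.17 CPM with atRA, 8.71 CPM in vitamin A-free medium and 6.53 CPM in the day-4 vehicle, and at 10.7 and 10.3 CPM at day 1. Like Notch2, Jag1 with RXRi was close to the day-1 libraries, and its ratio to the vehicle was 1.76 (1.53 to 2.03).

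The target Hes1 was lowest with atRA. It was at 76.4 CPM with RXRi, 26.2 CPM with atRA, 107 CPM in vitamin A-free medium and 84.0 CPM in the day-4 vehicle, and at 40.3 and 31.3 CPM at day 1. Hes1 was 3.20-fold lower with atRA than in the vehicle (3.02 to 3.40), whereas its ratio with RXRi was 0.909 (0.870 to 0.951). Hes6 was at 80.9 CPM with RXRi, 92.3 CPM with atRA, 133 CPM in vitamin A-free medium and 112 CPM in the day-4 vehicle, and at 66.0 and 60.2 CPM at day 1. All 4 day-4 libraries were above both day-1 libraries, and no treatment was 1.5-fold from the vehicle.

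Atoh1 was at 5.97 CPM with RXRi, 2.86 CPM with atRA, 6.58 CPM in vitamin A-free medium and 4.48 CPM in the day-4 vehicle, and at 2.64 and 5.60 CPM at day 1. The day-1 libraries span most of that range. The ratio to the vehicle was 1.33 with RXRi (1.11 to 1.60), 0.638 with atRA (0.520 to 0.782) and 1.47 in vitamin A-free medium (1.24 to 1.75). With RXRi, then, Atoh1 was above the vehicle while both Delta-like ligands were below it.

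**Figure D1:**
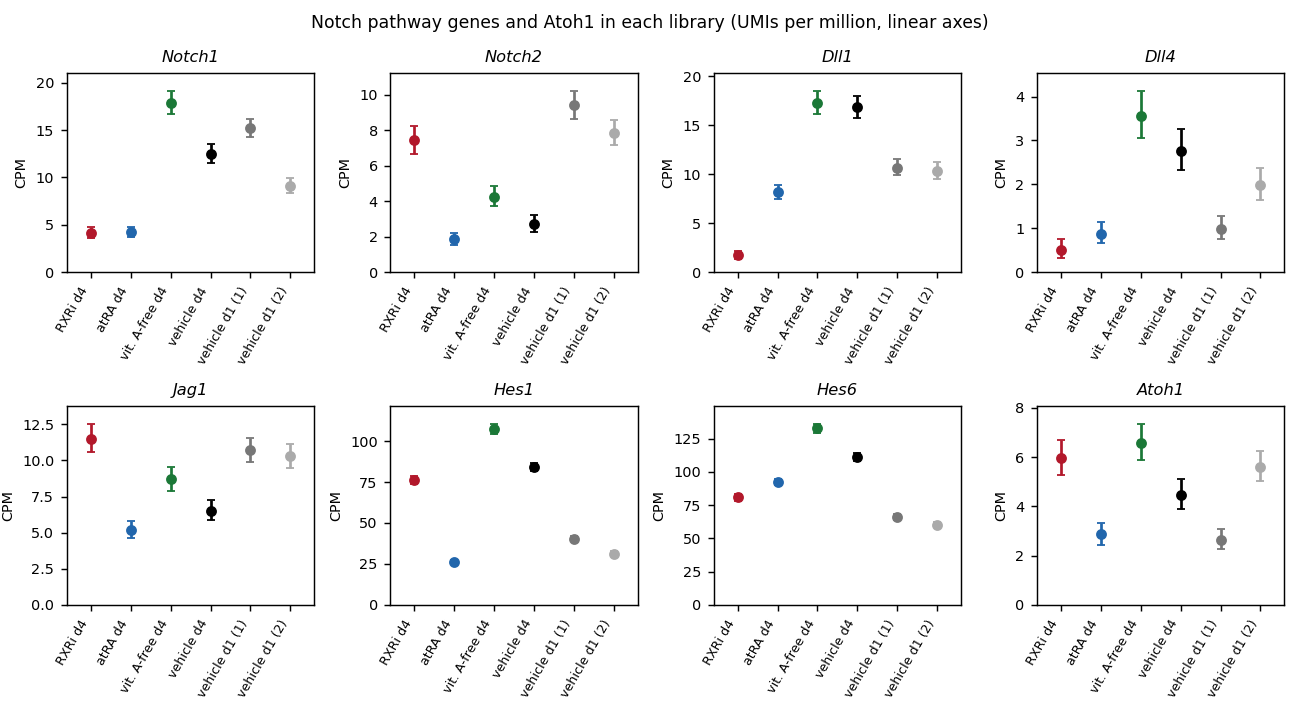
Level of each gene in each of the 6 libraries, in CPM on linear axes that start at 0; points are libraries and bars are 95% counting intervals. Dll1 and Dll4 are lowest with RXRi (1.74 and 0.508 CPM), and Hes1 is lowest with atRA (26.2 CPM).

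A gene was counted as apart where it differed at least 1.5-fold and had 2 CPM or more in at least 1 of the pair of libraries, a rule of size and not a test. The 2 day-1 vehicle libraries themselves differed more than 1.5-fold in Notch1, Dll4 and Atoh1, but not in the other genes. These were at 15.2 and 9.12, 0.991 and 1.99, and 2.64 and 5.60 CPM, in that order. All 8 genes had 2 CPM in each day-4 pair. With RXRi, 2 were higher (Notch2 and Jag1) and 3 lower (Notch1, Dll1 and Dll4) than in the vehicle. Of 11528 genes measured in that pair, 18.0% were higher and 21.7% lower by the same rule. The median log2 ratio was -0.30 for the 8 genes against -0.02 for all. With a pseudocount of 5 CPM, Dll4 and Jag1 were no longer apart.

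With atRA, 0 of the 8 genes were higher and 5 were lower (Notch1, Dll1, Dll4, Hes1 and Atoh1). In that pair 7.13% of 11127 genes were higher and 33.5% lower, and the median of all genes was -0.37 on the log2 scale. The top 10 genes made up 17.1% of the UMIs with atRA and 9.95% of those in the vehicle. Relative to that median, Hes1 was 2.48-fold, Dll4 2.44-fold, Notch1 2.28-fold and Dll1 1.60-fold lower, and Atoh1 was 1.21-fold lower and no longer apart. Atoh1 was likewise not apart with TMM factors, DESeq2 size factors or equal weight per cell.

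In vitamin A-free medium all 8 ratios were above 1, and 1 gene, Notch2, was apart. The other ratios were between 1.03 (Dll1) and 1.47 (Atoh1). Of 11308 genes, 5.58% were higher and 2.18% lower, with a median of 0.12. Relative to that median, Dll1 was at 0.947 and 0 of the 8 genes were apart. These 3 comparisons share the vehicle library.

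**Figure D2:**
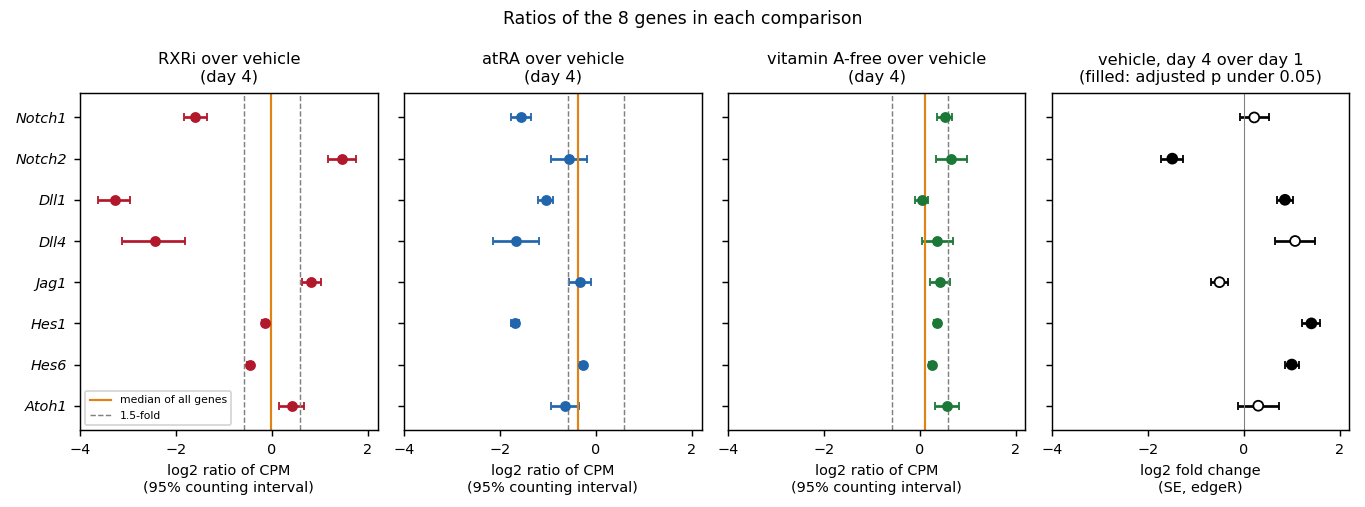
Log2 ratio of each gene over the day-4 vehicle for the 3 treatments, with 95% counting intervals, dashed lines at 1.5-fold and an orange line at the median of all genes; the right panel gives the log2 fold change of the vehicle at day 4 over day 1 with its SE, filled where the adjusted p is under 0.05. Dll1 with RXRi is the farthest point, at -3.28.

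Between day 4 and day 1 a test could be made, since day 1 has 2 libraries. edgeR's quasi-likelihood test takes the spread from them and assumes that the lone day-4 library varies alike. Nothing says that the day-1 libraries are separate cultures, so p-values cover the spread between those libraries, which may be technical. In the vehicle, 3 of the 8 genes rose by day 4 and 1 fell. Hes1 rose by 1.41 ± 0.19 on the log2 scale (SE, Benjamini-Hochberg adjusted p = 0.0044), Hes6 by 1.00 ± 0.15 (adjusted p = 0.0056) and Dll1 by 0.86 ± 0.16 (adjusted p = 0.0102). Notch2 fell by 1.49 ± 0.23 (adjusted p = 0.00625). The day-4 value lay outside the pair of day-1 values for each of these 4 genes, and also for Dll4 and Jag1. Dll4 (1.07 ± 0.42, adjusted p = 0.101), Jag1 (-0.50 ± 0.18, adjusted p = 0.0735), Notch1 (0.22 ± 0.31, adjusted p = 0.612) and Atoh1 (0.30 ± 0.43, adjusted p = 0.618) did not pass. Of 17592 genes tested, 17.3% rose and 16.9% fell.

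A wider list of 85 further Notch pathway genes was read by role. With RXRi, 62 had 2 CPM, of which 7 were higher and 10 lower, where 18.0% and 21.7% of all genes were, with a median log2 ratio of -0.06. Notch3 was at 3.60 CPM with RXRi against 0.0400 CPM (2 UMIs) in the vehicle, a ratio of 90.0 with a wide interval of 24.5 to 749, and Jag2 was at 4.08 against 1.72 CPM. Neurl1b, a ubiquitin ligase of the family that drives ligand endocytosis, was at 1.44 CPM with RXRi against 12.2 CPM in the vehicle, and Lfng, a glycosyltransferase that tunes the receptors' response to ligands, was at 0.614 against 2.90 CPM. Among 15 other genes listed as Notch targets, 8 were measured, 2 higher and 4 lower. The crypt stem cell gene Olfm4 was at 0.656 CPM with RXRi against 279 CPM in the vehicle, and Hes2 at 0.0423 CPM (2 UMIs) against 4.00 CPM. Ccnd1, a driver of the cell cycle, was at 64.9 against 32.1 CPM. Rbpj was at 5.90 against 8.55 CPM, within 1.5-fold.

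With atRA, 59 of the 85 genes had 2 CPM, of which 2 were higher and 24 lower. Of all genes, 7.13% were higher and 33.5% lower. Relative to the median of all genes, the counts of the list were 5 and 11. The shares of all genes on that relative scale were not computed. Hes2 was one of the higher genes, at 7.79 CPM with atRA against 4.00 CPM in the vehicle, the opposite direction from Hes1. Olfm4 was at 67.6 against 279 CPM. Chac1, which blocks receptor maturation, was at 1.92 CPM with atRA against 13.4 CPM in the vehicle, and with RXRi it was at 45.3 CPM. In vitamin A-free medium 60 genes had 2 CPM, of which 4 were higher and 1 lower, where 5.58% and 2.18% of all genes were. Relative to the median of all genes, the counts in vitamin A-free medium were 3 and 3. Olfm4 was at 552 CPM there against 279 CPM in the vehicle, Ascl2, a stem cell factor, at 24.6 against 12.5 CPM, and Lfng at 4.61 against 2.90 CPM.

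Of 78 genes of the wider list tested between day 4 and day 1, 14 rose and 10 fell in the vehicle by edgeR, where 17.3% of all genes rose and 16.9% fell. The 4 targets that rose were Olfm4 (7.51 ± 0.23, adjusted p = 0.000355), Hes2 (2.83 ± 0.33, adjusted p = 0.00317), Cdkn1a (1.17 ± 0.25, adjusted p = 0.0161) and Nrarp (1.03 ± 0.24, adjusted p = 0.0206), the last a feedback inhibitor of Notch. Ccnd1 fell by 1.71 ± 0.19 (adjusted p = 0.00271). Of the ligand relatives, Jag2 fell by 1.64 ± 0.25 (adjusted p = 0.00598) and Dlk2 also fell. The inhibitor Numb rose by 1.06 ± 0.15 (adjusted p = 0.00472).

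Transcription factors of the secretory and absorptive lineages were read as well. Of 26 secretory factors, 17 were measured with RXRi, 5 higher and 8 lower, where 18.0% of all genes were higher and 21.7% lower. Sox9 was at 7.43 CPM with RXRi against 37.1 CPM in the vehicle and Neurog3, which starts the enteroendocrine fate, at 1.82 against 9.31 CPM, whereas Klf4, a goblet cell factor, was at 92.8 against 30.3 CPM. With atRA 13 of 16 were lower and 0 higher, where 33.5% of all genes were lower, and relative to the median of all genes 11 were lower. Among them was Sox4, at 46.3 CPM with atRA against 160 CPM in the vehicle. In vitamin A-free medium 5 of 17 were higher and 0 lower, where 5.58% of all genes were higher, and relative to the median 3 were higher. Of 15 absorptive factors, 14 were measured in each day-4 pair. With RXRi 1 was higher and 6 lower, where 18.0% and 21.7% of all genes were. With atRA 3 were higher and 3 lower, where 7.13% and 33.5% of all genes were. Relative to the median the atRA counts were 5 and 1. The shares of all genes relative to the median were not computed. In vitamin A-free medium 0 were higher and 2 lower, where 5.58% and 2.18% of all genes were. Among the lower was Isx, a gut transcription factor that represses vitamin A uptake. Isx was at 0.0609 CPM (3 UMIs) in vitamin A-free medium against 172 CPM in the vehicle. Of the 15 tested by edgeR, 8 were higher in the vehicle at day 4 than at day 1, where 17.3% of all genes were, including Hnf4g (1.69 ± 0.16, adjusted p = 0.00205), and the others did not pass.

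The cells were grouped into 23 clusters without the 8 genes and the wider list, and named from marker genes. The goblet-like class also held Paneth cell genes such as Defa24, Lyz1 and Mmp7. At day 4 it was nearly all cluster 14, and at day 1 mostly cluster 18. The enteroendocrine-like class (cluster 15) was shallow, with a median UMI count 0.309 times that of its own libraries. Nearly all enterocyte-like cells were in clusters 0 and 3 in the vitamin A-free and day-4 vehicle libraries and in clusters 4, 8 and 16 with atRA. At day 1 they were in clusters 7 and 13. At this clustering resolution the RXRi library had fewer than 20 cells in each of the stem-like, cycling-like and enterocyte-like classes. At resolution 2 a cycling-like cluster held 92 RXRi cells, and 8.83% of RXRi cells thinned to 5000 UMIs had a UMI of the cycling marker Mki67, against 19.1% in the day-4 vehicle. It held 2000 regenerative-like cells, led by Ly6m and Ly6d, and 1298 unnamed ones.

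Atoh1 was concentrated in goblet-like cells. They were 2.18% to 6.06% of cells and held 67.9% to 91.5% of the Atoh1 UMIs of each library. Their Atoh1 level was 204 CPM with RXRi, 134 CPM with atRA, 149 CPM in vitamin A-free medium and 138 CPM in the day-4 vehicle, and 86.3 and 121 CPM at day 1. Stem-like cells had 1.43 to 4.78 CPM and enterocyte-like cells 0.0835 to 0.491 CPM. In cells thinned to 5000 UMIs, 43.1% of goblet-like cells of the day-4 vehicle had an Atoh1 UMI, against 0.0366% of its enterocyte-like cells. The median depths were 7921 and 11078 UMIs, in the same order.

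Dll4 was high in the goblet-like and enteroendocrine-like classes, and Dll1 in the goblet-like class. Dll1 was also spread, at lower levels, over stem-like, cycling-like and enterocyte-like cells. Dll1 in goblet-like cells was at 30.8 CPM with RXRi, 71.7 CPM with atRA, 131 CPM in vitamin A-free medium and 177 CPM in the day-4 vehicle, and at 48.6 and 43.5 CPM at day 1. In enterocyte-like cells it was at 6.68 CPM with atRA, 13.0 CPM in vitamin A-free medium and 13.4 CPM in the day-4 vehicle, and at 9.14 and 9.66 CPM at day 1. Stem-like cells had Dll1 at 9.55 CPM with atRA, 16.3 CPM in vitamin A-free medium and 11.7 CPM in the day-4 vehicle. In cycling-like cells of these libraries Dll1 was at 8.93, 11.6 and 10.2 CPM, in the same order. In enteroendocrine-like cells, on 0 to 13 UMIs per library, Dll1 was not detected with atRA (at most 40.1 CPM) and was at 3.91 to 13.1 CPM in the other libraries. In regenerative-like cells of the RXRi library it was at 0.559 CPM. The number of Dll1 UMIs per Atoh1 UMI was 0.151 to 1.28 in goblet-like cells and 19.7 to 153 in enterocyte-like cells. The enterocyte-like values rest on 1 to 9 Atoh1 UMIs per library, so their size is uncertain. The 2 genes were thus not in 1 ratio across the cells of a library. Dll4 was at 16.9 to 74.3 CPM in enteroendocrine-like cells and at 10.3 to 44.3 CPM in goblet-like cells, and in enterocyte-like cells at 0.272 to 0.849 CPM.

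Within goblet-like cells, the Delta-like ligands were lower with RXRi while Atoh1 was not. Jag1 was not lower either, with a ratio of 1.96 (0.665 to 6.46) on 11 UMIs with RXRi and 6 in the vehicle. In 126 RXRi against 169 vehicle cells of this class, Dll1 was 5.75-fold lower (4.09 to 8.29), Dll4 4.31-fold lower (2.34 to 8.57) and Hes6 2.31-fold lower (1.92 to 2.78), and Atoh1 had a ratio of 1.48 (1.22 to 1.79). With finer clusters (resolution 2), 126 RXRi cells were in the main goblet-like cluster of day 4 and 0 in a Paneth-like cluster, against 118 and 49 cells of the vehicle. In the goblet-like class at that resolution, Dll1 was at 32.2 CPM with RXRi against 214 CPM in the vehicle, Dll4 at 10.2 against 45.5 CPM, Hes6 at 133 against 362 CPM and Atoh1 at 203 against 132 CPM. With atRA, Dll1 was 2.48-fold lower in goblet-like cells (1.91 to 3.23) and the Atoh1 ratio was 0.972 (0.779 to 1.21).

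In the libraries with a stem-like class, Hes1 was highest in that class and lower in the secretory classes. With atRA, though, goblet-like cells were above enterocyte-like cells, at 50.2 against 14.2 CPM. In stem-like cells Hes1 was at 135 CPM with atRA, 155 CPM in vitamin A-free medium and 140 CPM in the vehicle. In goblet-like cells it was at 21.3 to 50.2 CPM over the 6 libraries. In enteroendocrine-like cells there were at most 3 Hes1 UMIs per library. Hes1 was low with atRA in the enterocyte-like class, at 14.2 CPM with atRA against 70.3 CPM in the vehicle, 4.95-fold lower (4.54 to 5.40), and in the unnamed cells, at 42.1 against 103 CPM, 2.43-fold lower (2.07 to 2.86). In goblet-like cells it was higher, at 50.2 CPM with atRA against 25.1 CPM in the vehicle, a ratio of 2.00 (1.28 to 3.15). In stem-like and cycling-like cells the ratios with atRA were 0.968 (0.807 to 1.16) and 0.890 (0.794 to 0.996). Notch1 had a like pattern, at 2.61 CPM with atRA against 9.83 CPM in the vehicle in enterocyte-like cells, at 4.53 against 11.8 CPM in unnamed cells and at 23.9 against 24.5 CPM in stem-like cells. The enterocyte-like cells of these libraries are in different clusters, and so are most of the unnamed cells. With atRA 398 of the 588 unnamed cells were in cluster 17, and in the vehicle 347 of 481 were in cluster 12. The ratios in these 2 classes thus set different cells against each other. Whether the classes differ in this ratio was not tested.

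Notch2 was at 7.30 to 10.3 CPM in stem-like and at 0.543 to 1.19 CPM in enterocyte-like cells of day 4, and at 3.85 and 6.44 CPM in those of day 1. In regenerative-like cells it was at 8.31 CPM and Jag1 at 12.1 CPM. Over the libraries Jag1 was at 7.05 to 12.4 CPM in cycling-like and at 4.89 to 9.63 CPM in enterocyte-like cells. Hes6 was highest in the enteroendocrine-like class with atRA, at 478 CPM (348 to 642) on 21 cells and 44 UMIs. The same class had 166 CPM with RXRi, 304 CPM in vitamin A-free medium and 301 CPM in the day-4 vehicle. In goblet-like cells Hes6 was at 132 to 305 CPM.

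**Figure D3:**
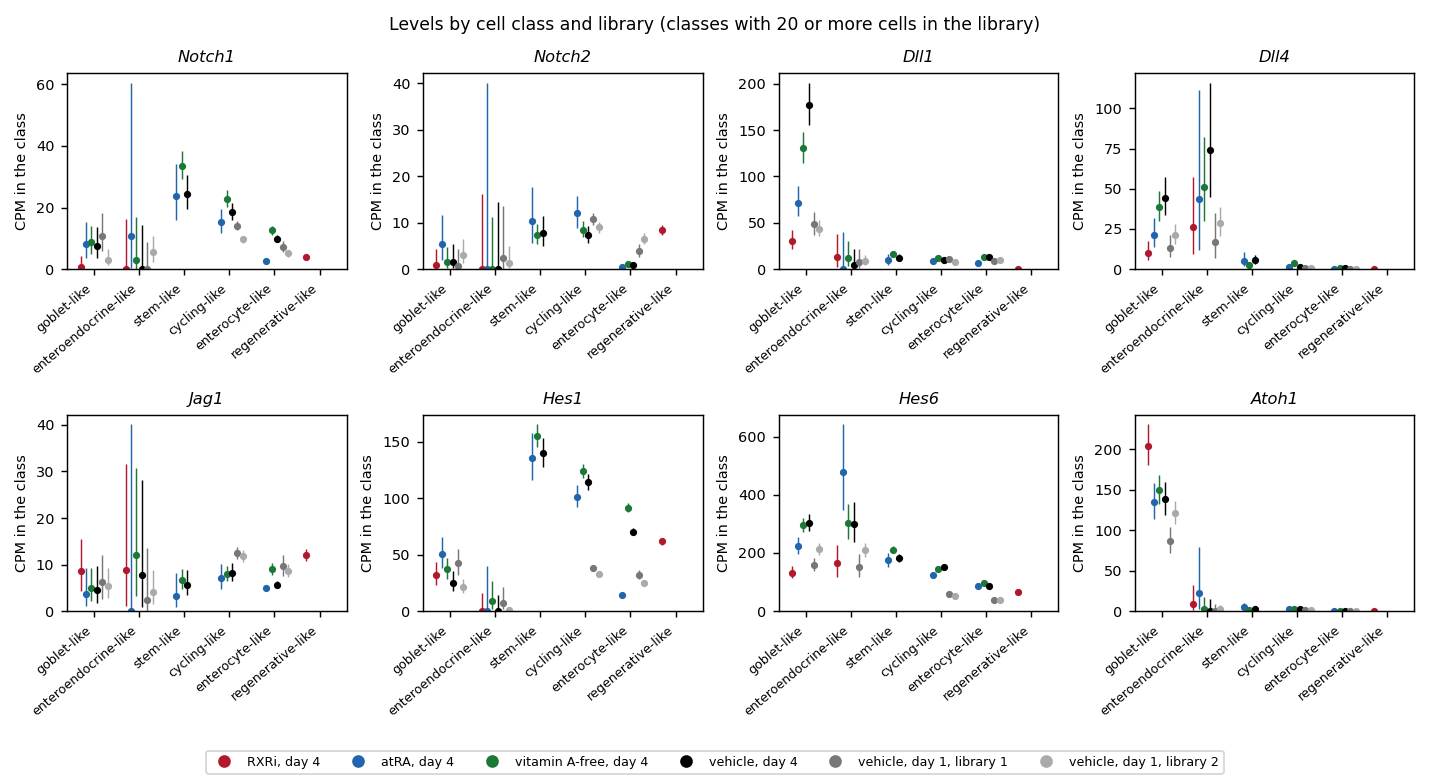
Level of each gene in CPM (linear axes) by cell class, with 1 point per library and 95% counting intervals; classes with fewer than 20 cells in a library are not drawn. Atoh1 is highest in the goblet-like class, at 86.3 to 204 CPM, and Hes1 peaks in stem-like cells at 135 to 155 CPM.

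Cells with an Atoh1 UMI were then set against the other cells of the same library, all thinned to 5000 UMIs. They were 2.16% of cells with RXRi, 0.887% with atRA, 2.42% in vitamin A-free medium, 1.79% in the day-4 vehicle and 1.06% and 2.26% at day 1. Unthinned, these shares were 3.03%, 1.48%, 3.31%, 2.39%, 2.22% and 3.72% in the same order, and 182 to 603 shallower cells per library were left out by the thinning. Cells with Atoh1 had the goblet cell genes: in the day-4 vehicle Muc2, the main gut mucin, was at 350 CPM in them and 7.90 CPM in the others, and Spdef, a goblet and Paneth cell factor, at 153 and 3.59 CPM. Dll1, Dll4 and Hes6 were higher in cells with an Atoh1 UMI in 6 of 6 libraries. In the day-4 vehicle Dll1 was at 158 CPM in cells with Atoh1 and 16.6 CPM in the others, Dll4 at 52.6 and 2.39 CPM, and Hes6 at 258 and 113 CPM. Over the libraries the ratio was 2.76 to 18.1 for Dll1, 11.9 to 45.3 for Dll4 and 1.62 to 2.65 for Hes6. Dll4 was sparse, with a UMI in 9 thinned cells with RXRi, the fewest, and in 76 in vitamin A-free medium, the most. The largest Dll1 ratio was that of the RXRi library, where Dll1 was at 28.6 CPM in cells with Atoh1 and 1.58 CPM in the others. That Dll1 ratio rests on 10 and 25 UMIs, with an interval of 7.76 to 39.1. The Hes1 ratio was below 1 in 6 of 6 libraries, at 0.294 to 0.680, on 4 to 28 UMIs in the cells with Atoh1. Its interval lay below 1 with RXRi (0.127 to 0.582), in vitamin A-free medium (0.290 to 0.633) and in the day-4 vehicle (0.260 to 0.771), and included 1 with atRA (0.185 to 1.75) and at day 1 (0.219 to 1.31 and 0.223 to 1.03). Without thinning the ratio was below 1 in 4 of 6, and above 1 with atRA and in day-1 library 1. For Notch1, Notch2 and Jag1 the cells with Atoh1 held at most 3 UMIs per library, too few to give a direction.

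**Figure D4:**
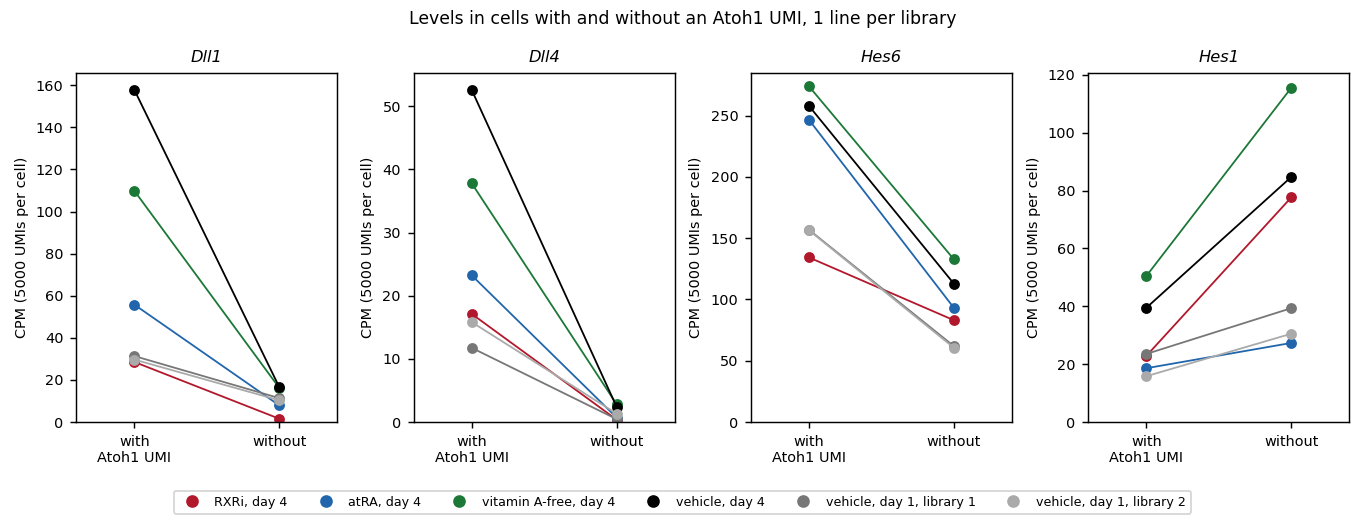
Level of Dll1, Dll4, Hes6 and Hes1 in CPM (linear axes) in cells with an Atoh1 UMI and in the other cells, at 5000 UMIs per cell, with 1 line per library. Dll1, Dll4 and Hes6 slope down to the cells without Atoh1 in every library, and Hes1 slopes up.

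Over 43 sums of UMIs by library and cluster with 50 or more cells, the 3 genes closest to each of the 8 were found among 11393 by Pearson's r of log2(CPM + 5). The sums share libraries and depth, so r is a description. Atoh1 was closest to Galnt5 (0.99), Ern2 (0.99) and Tpsg1 (0.98), and Dll4 to 5330417C22Rik, Kit and Clps (each 0.96). Dll1 was closest to Enpp3, Smim5 and Rnase1 (0.83 to 0.84), and Hes1 to Fgfbp1 (0.93), Nudt2 and Pdha1. Hes6 was closest to Nav2, Utrn and Rcor2 (0.85 to 0.89), Notch1 to Hook1, 4632415L05Rik and Zfp36l2 (0.80 to 0.81), Notch2 to Ttll12, Btbd19 and 9930014A18Rik (0.84 to 0.87), and Jag1 to Dync1li1, Tjp1 and Pkn2 (0.76 to 0.81). Among the 8 themselves, Dll1 and Atoh1 had r = 0.81, Dll4 and Hes6 0.81 and Dll4 and Atoh1 0.73, and Hes1 and Atoh1 had -0.12.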

How the data were processed

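RNA was counted in single cells, sorted to leave out debris and dead cells before capture, per the labels' protocols, which name a 3-prime version 2 guide. The submitters' processing notes name bcl2fastq 2.17, Cell Ranger 3.1.0 and GRCm38. The authors deposited raw UMI counts, by gene and by cell, and did not normalize them. Capture at the 3-prime end makes levels depend on the transcript ends that were annotated.

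The 8 genes, the gene lists, the markers and the comparisons were chosen with earlier results of these data known. The rule for named genes was all 8 genes in every library, from each role group of the wider list up to 3 genes with the largest ratio in each direction, and for each of the 8 the 3 genes with the highest r. Of the 126 genes on the wider list, 125 were found by symbol. Rbpj and the genes named from the wider list for day 4 against day 1 fall outside the rule and were chosen after their values were seen.

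Barcodes needed 500 genes, 1000 UMIs and at most 20% mitochondrial UMIs, which removed 0. Scrublet's own threshold marked 0.0897% to 1.63% of barcodes, so the highest-scoring 0.8% per 1000 barcodes were removed, 102 to 249 per library. Depth was 47258161 to 62567817 UMIs per library, so 3 UMIs, taken as the floor, are 0.0479 to 0.0635 CPM. UMIs were summed per library and divided by the total. Ratios have exact conditional 95% Poisson intervals. Intervals cover counting error only.

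The test was edgeR's quasi-likelihood test (edgeR 4.0.16, R 4.3.3) after filterByExpr and TMM scaling, with Benjamini-Hochberg adjustment at 0.05, and it was checked on simulated data. DESeq2 1.42.0 was an alternative. Cells were clustered with scanpy 1.11.5 and leidenalg 0.10.2 (2000 variable genes, 30 principal components, 20 neighbours, resolution 1.0). A name needed 3 markers among the top 50 genes of a cluster, ranked within its own libraries or else over all cells, an order chosen after seeing the data. Alternatives were other scalings, filters, depths and resolutions.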

Additional observations from a re-analysis of the deposited data

How the results depend on the processing

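No paired analysis was possible because no library is tied to a mouse and each day-4 group has 1 library. The 4 genes called between day 4 and day 1 were the same (Notch2, Dll1, Hes1 and Hes6) with DESeq2, with no filter on low counts and with all deposited barcodes. Over all genes the count of calls was 6019, and 3971 with no filter, where more genes were tested. Without day-1 replicate 1 or 2 there is no test, and the log2 ratio ranged from -1.62 to -1.33 for Notch2, 0.84 to 0.91 for Dll1, 1.24 to 1.63 for Hes1 and 0.93 to 1.09 for Hes6. For Dll4, which did not pass, it ranged from 0.68 to 1.65. It ranged from -0.10 to 0.66 for Notch1 and from -0.12 to 0.94 for Atoh1, so their direction depended on the day-1 library. With RXRi 5 of the 8 genes were apart, and 3 with a pseudocount of 5 CPM or a minimum of 10 CPM, since these settings shrink or drop low genes. With atRA the 5 became 3 under both. In vitamin A-free medium the count of 1 became 0 with TMM factors, DESeq2 size factors, a pseudocount of 5 CPM or a minimum of 10 CPM, and 2 with all barcodes, and with equal weight per cell the 1 gene was Atoh1 instead of Notch2. No gene counted as apart changed sign under the alternatives run. Leaving out the low-depth clusters, added after seeing the data, left each of these counts the same. In vitamin A-free medium, the ratio of Notch1 in cells with over without an Atoh1 UMI was 0.286 and became 1.49 when thinned to 3000 UMIs, on few UMIs, and the cause was not tested. The treatments have 1 library each, so no depth makes up for the missing replicates.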
